A study of Mus musculus with 36 samples.

Results

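The 38 Hox genes described here are the protein-coding genes of the Hoxa (10 genes), Hoxb (10), Hoxc (9) and Hoxd (9) clusters whose symbols were listed for study. They were picked by symbol and not by any measured value, out of 23059 genes with a row in the RNA count tables, and for each gene the RefSeq transcript with the highest mean count over the 12 RNA libraries was used. Articular cartilage was microdissected from knees of male C57BL/6J mice operated at 12 weeks of age, when the medial meniscus of the right knee was destabilized (DMM) to model post-traumatic osteoarthritis (OA). The unoperated left knees of mice that had undergone DMM served as controls, so no sham surgery enters the comparison and both limbs come from the same mice. Tissue was collected 4 or 12 weeks later, each library pooled 3 knees, and each limb had 3 libraries per time. RNA was counted in 12 libraries, and 5-methylcytosine (5mC) was read in 12 oxidative bisulfite libraries made from other mice.

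Hox genes encode homeodomain transcription factors that give cells a position along the body axis and along the limb. The genes of a cluster stand in the order in which they are used from head to tail, and genes at the same place in different clusters form a paralog group. In the limb the groups toward the tail end of the clusters act in order. The first of them pattern the upper segment with the femur, the next ones the lower segment, and the last ones the foot. Connective tissue and skeletal cells of the adult keep part of this pattern. The knee lies where the upper and the lower segment meet.

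The library totals ranged from 27706547 to 62737656 counts, so that 3 counts correspond to 0.0478 to 0.108 CPM (counts scaled to a common library size). Replicates of a limb spread far more than counting noise alone allows (chi-square divided by its degrees of freedom, 46.7 to 422). All 16 chondrocyte markers were counted, with a summed level of 7549 to 23853 CPM, and markers of marrow and muscle were abundant too: 9034 to 41289 CPM for 8 neutrophil markers, 7322 to 21607 CPM for 7 erythroid markers and 95.6 to 23548 CPM for 12 skeletal muscle markers. In such bulk tissue, fewer cells of a type and less RNA per cell cannot be told apart. Levels below are CPM with TMM scaling, divided by the exon length of the transcript in kb (CPM per kb).

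5 promoters are printed because they span the range of Hox expression and of 5mC in this cartilage: the Hox genes with the highest level (Hoxa10) and the third highest (Hoxd9), a gene with almost no reads (Hoxd1), the gene with the most methylated start (Hoxa5) and a gene with few CpGs and an intermediate 5mC level (Hoxd4). The sequences are from RefSeq on GRCm38.p6, run 5′ to 3′ from 250 bases before the start to 50 bases after it, and carry CpG dinucleotides in capitals. Hoxa10 lies on the minus strand at chr6:52234890-52235189, Hoxd9 on the plus strand at chr2:74697513-74697812, Hoxd1 on the plus strand at chr2:74762730-74763029, Hoxa5 on the minus strand at chr6:52204538-52204837 and Hoxd4 on the plus strand at chr2:74721728-74722027.
Hoxa10: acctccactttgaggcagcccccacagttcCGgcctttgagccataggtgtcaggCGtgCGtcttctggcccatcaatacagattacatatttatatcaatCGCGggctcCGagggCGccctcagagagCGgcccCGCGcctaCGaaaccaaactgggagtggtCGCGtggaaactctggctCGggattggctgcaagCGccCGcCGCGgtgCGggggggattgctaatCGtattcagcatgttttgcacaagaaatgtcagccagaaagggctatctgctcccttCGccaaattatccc
Hoxd9: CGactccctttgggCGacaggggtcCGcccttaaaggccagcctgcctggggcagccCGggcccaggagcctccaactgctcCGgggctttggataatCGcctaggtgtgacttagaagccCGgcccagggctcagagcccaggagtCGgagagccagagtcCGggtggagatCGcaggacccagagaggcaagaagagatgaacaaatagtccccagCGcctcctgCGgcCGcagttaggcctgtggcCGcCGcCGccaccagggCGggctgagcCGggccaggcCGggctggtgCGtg
Hoxd1: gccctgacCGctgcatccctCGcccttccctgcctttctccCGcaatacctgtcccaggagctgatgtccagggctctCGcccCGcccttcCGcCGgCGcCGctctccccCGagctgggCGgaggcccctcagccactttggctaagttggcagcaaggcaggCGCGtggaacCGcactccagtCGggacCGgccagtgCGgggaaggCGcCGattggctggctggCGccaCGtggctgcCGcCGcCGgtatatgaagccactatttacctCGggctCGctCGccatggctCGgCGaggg
Hoxa5: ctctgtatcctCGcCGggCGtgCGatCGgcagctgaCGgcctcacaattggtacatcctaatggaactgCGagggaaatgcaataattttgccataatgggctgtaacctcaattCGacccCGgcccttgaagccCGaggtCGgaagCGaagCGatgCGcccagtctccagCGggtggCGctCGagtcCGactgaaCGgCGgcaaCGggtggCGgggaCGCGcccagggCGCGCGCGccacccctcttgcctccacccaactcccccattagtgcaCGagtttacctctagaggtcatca
Hoxd4: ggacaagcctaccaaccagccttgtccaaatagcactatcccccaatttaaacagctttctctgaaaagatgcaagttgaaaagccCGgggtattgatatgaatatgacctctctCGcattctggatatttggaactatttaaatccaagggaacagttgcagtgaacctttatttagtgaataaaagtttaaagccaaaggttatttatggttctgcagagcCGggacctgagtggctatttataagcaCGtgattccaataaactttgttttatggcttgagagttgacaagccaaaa
Hoxd1 and Hoxa5 hold 29 CpGs each, Hoxa10 holds 21, Hoxd9 holds 20 and Hoxd4 holds 4. Among 32851 RefSeq promoters of 300 bases the median is 7 CpGs, and 87.1% hold fewer than Hoxd1 or Hoxa5. RefSeq promoters were matched for 22 of the 38 genes, for 21 of them at the counted transcript, and these 21 hold 4 to 45 CpGs with a median of 15.

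Expression was concentrated in paralog groups 9 and 10, past the middle of the clusters. Paralog group 10 made up 39.9% of the summed Hox level on average (36.0 to 50.2% over the 12 libraries), group 9 made up 19.5% (14.6 to 23.7%) and group 8 made up 10.1% (6.54 to 14.0%). Group 11, which patterns the lower limb segment, made up 8.38% (6.72 to 9.98%). At the middle, groups 6 and 7 made up 5.57% and 7.15%. Groups 12 and 13, the foot end of the clusters, made up 0.0204% and 0.620%, and groups 1 to 5 made up 0.0337 to 2.89% each, group 1 being read from Hoxb1 and Hoxd1 alone. Between clusters, Hoxa held 44.0% of the level (41.7 to 49.3%), Hoxc 32.3% (27.6 to 38.9%), Hoxd 20.1% (15.3 to 25.5%) and Hoxb 3.66% (1.97 to 6.17%). The ranges of the 4 clusters did not overlap over the libraries. Over the 38 genes, Spearman's rho between 2 libraries was 0.840 to 0.976 (median 0.948 of 66 pairs); the genes are not independent replicates and the libraries share the gene-specific efficiency of the assay.

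**Figure D1:**
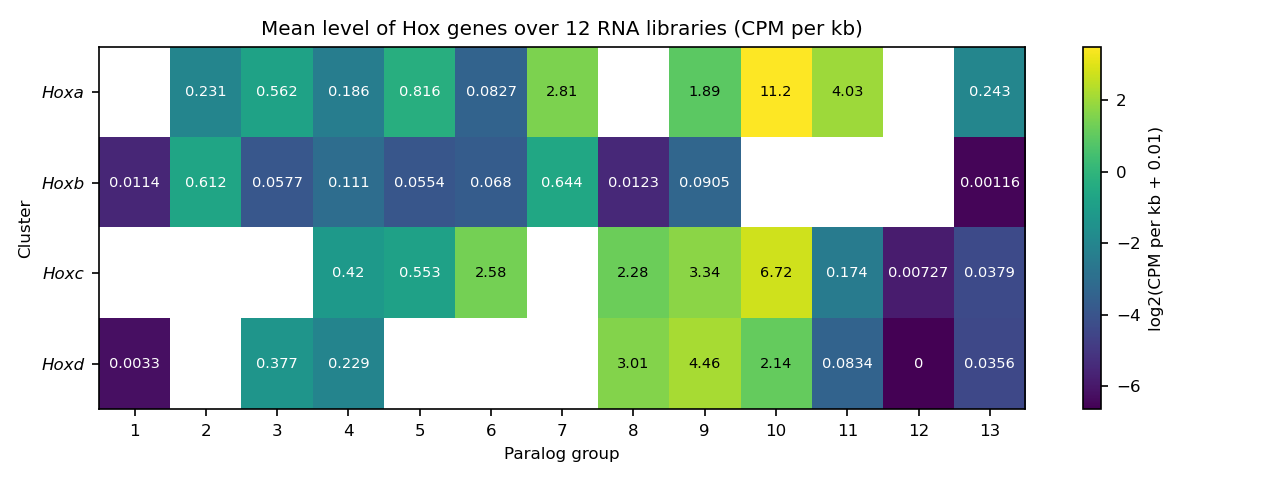
Mean level of each Hox gene over the 12 RNA libraries (number and colour, CPM per kb; colour on a log2 scale) by cluster (rows) and paralog group (columns). White cells hold none of the 38 genes. Hoxa10 is the highest at 11.2, and the Hoxb row stays below 1.

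The 10 highest genes carried 84.3% of the summed level (79.7 to 87.3%). Hoxa10, which patterns the femur and the uterus, had the highest level in all 12 libraries. Its level was 17.8, 11.7 and 7.56 CPM per kb in the 4-week controls, 13.7, 11.5 and 14.0 in the 4-week DMM libraries, 6.81, 10.2 and 5.23 in the 12-week controls and 10.3, 15.5 and 9.92 in the 12-week DMM libraries. It exceeded that of 79.1% of all genes with a length, and 2 RefSeq transcripts of the gene were counted with nearly the same reads, so the value is that of 1 transcript. Hoxc10, known from motor neurons of the hindlimb, ranked 2 or 3 in every library, with 11.9, 6.88 and 4.64 in the 4-week controls, 7.87, 6.18 and 7.11 in 4-week DMM, 3.93, 5.70 and 4.07 in the 12-week controls and 8.58, 8.81 and 5.03 in 12-week DMM. For Hoxa10 and Hoxc10 the limbs overlapped at each time.

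Hoxd9, a gene of the upper limb segment, had 7.21, 5.47 and 1.98 CPM per kb in the 4-week controls, 5.41, 3.22 and 3.01 in 4-week DMM, 2.57, 5.79 and 2.99 in the 12-week controls and 4.21, 7.30 and 4.37 in 12-week DMM. Hoxa11, which patterns the lower limb segment, had 7.85, 5.27 and 2.15 in the 4-week controls, 4.45, 3.28 and 3.58 in 4-week DMM, 2.48, 4.14 and 1.63 in the 12-week controls and 4.19, 5.21 and 4.19 in 12-week DMM. Of its 2288 exon bases, 568 (24.8%) are shared with the antisense transcript Hoxa11os, so reads of the 2 genes cannot be told apart there unless strand was kept. The paper's methods and the sample labels name different RNA library kits, and neither describes a step that marks strand. Hoxc9, a gene of trunk motor neurons, ranged from 2.40 to 5.88 in the 4-week controls, from 2.68 to 3.55 in 4-week DMM, from 1.85 to 3.93 in the 12-week controls and from 2.55 to 4.58 in 12-week DMM.

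Hoxa7, a gene of trunk and of blood progenitors, lay between 1.90 and 4.86 CPM per kb over the 12 libraries, and Hoxc6, a thoracic gene, between 1.32 and 4.27. Hoxd10, which patterns hindlimb segments, lay between 0.728 and 3.98. The levels of Hoxd8 and Hoxc8, which complete the 10, are given with their comparisons. The order within the 10 was not fixed beyond the first gene: Hoxd9 ranked from 2 to 7, Hoxa11 from 3 to 6 and Hoxd10 from 3 to 12.

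**Figure D2:**
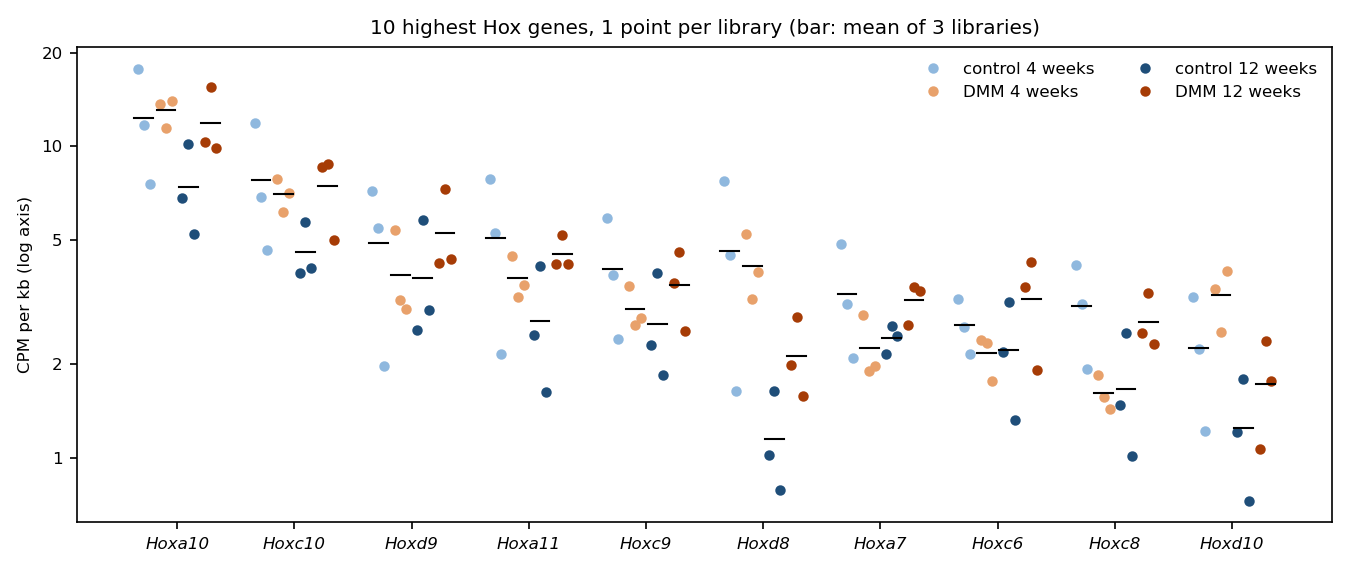
Level of the 10 highest Hox genes (x axis) in CPM per kb on a log axis, with 1 point per library coloured by limb and week and a bar at the mean of 3 libraries. Hoxa10 tops every library, from 5.23 to 17.8, and the 4 groups overlap for most genes.

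At the low end, Hoxd12, a gene of the foot end of its cluster, had 0 counts in all 12 libraries, which at 3 counts per library allows up to 0.0478 to 0.108 CPM. Hoxb13, known from prostate, had 1 count in 1 library. Hoxb1, a hindbrain gene, had 0 to 3 counts, and Hoxd1 and Hoxc12 had 0 to 2 counts. Hoxa13 and Hoxd13, which pattern the foot, had 0 to 23 and 0 to 12 counts, and Hoxc13, a hair follicle gene, had 0 to 18. A total of 19 genes had at least 10 counts in every library, 11 had a mean of at least 100 counts and 13 a mean under 10. In the Hoxb cluster, Hoxb7 and Hoxb2 had the highest levels, 0.644 and 0.612 CPM per kb on average.

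The summed Hox level varied widely within a group. It was 85.1, 56.3 and 33.9 CPM per kb in control replicates 1, 2 and 3 of 4 weeks, 59.0, 44.2 and 49.96 in the DMM libraries of 4 weeks, 32.0, 49.1 and 27.7 in the controls of 12 weeks and 51.0, 68.2 and 45.3 in the DMM libraries of 12 weeks. The chondrocyte marker sum in the same order was 20880, 16199 and 9769 CPM, then 12956, 8866 and 10044, then 11391, 21458 and 7549, and then 15589, 23853 and 18723. Within each of the 4 groups, the library with the highest Hox sum also had the highest chondrocyte sum. The neutrophil marker sum was lowest in these same libraries, at 9034, 13155, 24580 and 19669 CPM. The part of these markers in the Hox levels was not tested.

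The comparison of DMM with control limbs at 4 weeks asks whether early OA changed Hox expression. No Hox gene passed the threshold of an adjusted p under 0.05 in edgeR's quasi-likelihood test: 0 of 25 tested were called, where 0.0757% of 21140 transcripts were called. Without control replicate 3 there were 118 transcripts called instead of 16, without control replicate 1 there were 8 and without any 1 of the other 4 libraries there were 0, and the count of Hox genes stayed at 0. The other 13 genes were left out by the filter on low counts. At an unadjusted p under 0.05 there was 1 gene, where 13.7% of transcripts passed, and DESeq2 called 0 of 27, where it called 3.44% of transcripts. The median log2 fold change of the 25 genes was -0.31 (8 higher, 17 lower), beside -0.03 over all transcripts. Their standard errors had a median of 0.42.

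Hoxc8, a gene of rib and motor neuron identity, had the smallest p at 4 weeks. Its level was 4.18, 3.12 and 1.93 CPM per kb in the control libraries and 1.85, 1.56 and 1.44 in the DMM libraries. All 3 DMM libraries were below all 3 controls. The log2 fold change was -0.93 ± 0.32 (SE, n = 3 per limb; adjusted p = 0.311 by edgeR), with a 95% confidence interval of -1.65 to -0.20. With the muscle score as a covariate, which largely went with limb at 4 weeks, it was -0.13 (adjusted p = 0.984 by edgeR). Hoxd11, a lower limb segment gene, read here from a non-coding RefSeq transcript counted with nearly the same reads as the coding one, followed with a log2 fold change of 1.22 ± 0.53 (adjusted p = 0.367 by edgeR), at 0.0920, 0.0535 and 0.0339 CPM per kb in controls and 0.203, 0.131 and 0.0820 in DMM, and with the muscle score the log2 fold change was 2.78. Hoxa3, which is needed for thymus and parathyroid, had 0.740, 0.567 and 0.367 in controls and 0.455, 0.264 and 0.193 in DMM. For both genes the limbs overlapped, and with the muscle score the Hoxa3 log2 fold change turned to 0.35.

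Groups that did not overlap were counted for 3 of the 25 genes, where 21.4% of all transcripts did not overlap. These were Hoxa2, a hindbrain and branchial arch gene, higher with DMM, and Hoxb2 and Hoxc8, lower. Hoxa2 had few counts, 16, 14 and 19 in controls and 17, 18 and 13 in DMM. Its highest control level was 0.215 CPM per kb and its lowest DMM level 0.225. At 4 weeks 4 of the marker sums did not overlap between limbs. The skeletal muscle sum was 6414 to 23548 CPM in controls and 593 to 3857 in DMM, and the sum of 8 fibroblast and synovium markers was 3794 to 12058 in controls and 14625 to 20371 in DMM. The sum of 8 osteoblast and osteocyte markers was 3571 to 5815 in controls and 7161 to 8327 in DMM, and that of 5 adipocyte markers was 147 to 160.4 and 162 to 255. Of the 16 chondrocyte markers 13 had lower fitted levels with DMM, with a median log2 fold change of -0.72. As the muscle sum did not overlap between the limbs, muscle score and limb cannot be fully told apart in a fit with both. In that fit 654 transcripts had an unadjusted p under 0.05 by edgeR, instead of 2891. With the muscle score as a covariate the median log2 fold change of the Hox genes was 0.67 (21 of 25 higher), and without control replicate 1 it was 0.04 (14 of 25 higher). Without any other single library it was -0.46 to -0.18.

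At 12 weeks, with established OA, 0 of 26 Hox genes tested were called by edgeR, where 0.00476% of 21010 transcripts were. Without control replicate 2 there were 860 transcripts called and without DMM replicate 3 there were 102, and 0 Hox genes were called in each of these fits. At an unadjusted p under 0.05 there were 8 genes, 7 higher and 1 lower, where 16.3% of transcripts passed. DESeq2 called 0 of 21, where it called 4.24% of transcripts. The median log2 fold change was 0.59 (22 higher, 4 lower), beside 0.01 over all transcripts, and 0.39 to 0.89 with a library left out, the lowest without control replicate 3 and the highest without control replicate 2. With the muscle score as a covariate it was 0.66 (22 higher, 4 lower). All 8 tested genes of Hoxa, all 7 of Hoxc and all 6 of Hoxd had higher fitted levels with DMM, and 4 of the 5 of Hoxb had lower ones. Some Hoxb genes had few counts. Hoxb3 had 11, 10 and 10 in controls and 1, 5 and 12 in DMM, and Hoxb9 had 13, 12 and 0 and then 18, 3 and 19. Hoxb6, left out by the filter, had 0, 3 and 1 in controls and 11, 9 and 6 in DMM. The median log2 fold change was 0.59 for Hoxa, 0.72 for Hoxc, 0.60 for Hoxd and -0.52 for Hoxb.

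Hoxd4, a gene of the neck and hindbrain, had the smallest p at 12 weeks. Its level was 0.137, 0.149 and 0.179 CPM per kb in controls and 0.532, 0.479 and 0.193 in DMM. The limbs did not overlap, although DMM replicate 3 lay close to the controls. The log2 fold change was 1.38 ± 0.46 (SE, n = 3 per limb; adjusted p = 0.259 by edgeR), with a 95% confidence interval of 0.32 to 2.45. Hoxc5, a gene of the neck, had 0.385, 0.408 and 0.503 in controls and 0.638, 0.993 and 0.683 in DMM, a log2 fold change of 0.84 ± 0.30 (adjusted p = 0.265 by edgeR). Hoxb4, known from blood stem cells, went the other way, with 0.182, 0.167 and 0.294 in controls and 0.0817, 0.116 and 0.0613 in DMM. Its log2 fold change was -1.31 ± 0.47 (adjusted p = 0.268 by edgeR).

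The limbs did not overlap for 8 of the 26 genes, where 19% of all transcripts did not overlap. Higher with DMM were Hoxd4, Hoxa7, Hoxa9, Hoxa11, Hoxc4, Hoxc5 and Hoxc11, and lower was Hoxb4. Of the highest genes, Hoxa10 had a log2 fold change of 0.69 ± 0.27 and Hoxc10 of 0.72 ± 0.26 (adjusted p = 0.282 and 0.269 by edgeR). With the replicate number as a block, 1 of 26 Hox genes, Hoxa10, was called, where 3.49% of transcripts were. In the same libraries the fibroblast and synovium sum was 3685 to 6448 CPM in controls and 7799 to 12681 in DMM, the osteoblast and osteocyte sum 2385 to 3629 and 4282 to 5744, the chondrocyte sum 7549 to 21458 and 15589 to 23853, and the neutrophil sum 24580 to 41289 and 19669 to 32347. All 16 chondrocyte markers had higher fitted levels with DMM, with a median log2 fold change of 0.52. All 8 neutrophil markers (median -0.45) and all 7 erythroid markers (median -0.32, 1 at an unadjusted p under 0.05 in edgeR) had lower ones. The part of these markers in the Hox differences was not tested.

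**Figure D3:**
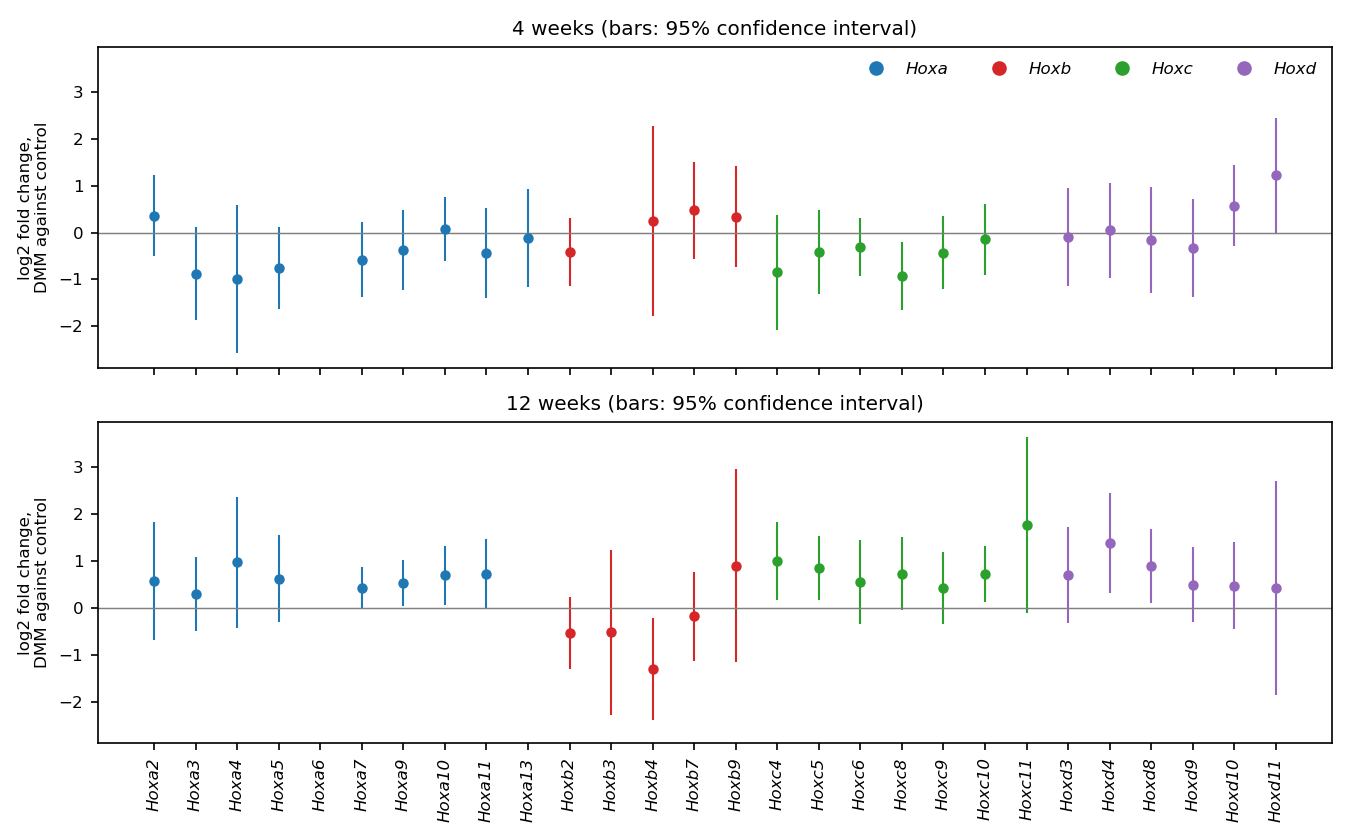
Log2 fold change of DMM against control (y axis) for each tested Hox gene (x axis, coloured by cluster) at 4 weeks (top) and 12 weeks (bottom), with 95% confidence intervals from edgeR. At 12 weeks the genes of Hoxa, Hoxc and Hoxd lie above 0 and 4 of 5 Hoxb genes below it, and no gene passed the adjusted threshold at either time.

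The difference between the 2 times was tested as the interaction of limb and week in all 12 libraries. No Hox gene was called: 0 of 28 tested, where 0% of 21618 transcripts were called by edgeR and 0.0613% by DESeq2, which called 0 of 37 Hox genes. At an unadjusted p under 0.05 there were 7 genes, where 12.3% of transcripts passed. The median interaction of the 28 genes was 0.85 on the log2 scale (23 higher, 5 lower; in Hoxb 2 higher, 3 lower). It was 0.56 without control replicate 1 of 4 weeks and 1.20 without control replicate 2 of 12 weeks. The 7 genes at an unadjusted p under 0.05 had a higher DMM to control ratio at 12 than at 4 weeks. So had all 16 chondrocyte markers (7 at an unadjusted p under 0.05, median interaction 1.16) and all 12 muscle markers (2, median 2.16). All 8 neutrophil and all 7 erythroid markers had a lower ratio (medians -0.44 and -0.27). With the muscle score as a covariate the median Hox interaction was 0.82 (24 higher, 4 lower). The part of the other markers in the Hox interactions was not tested. Hoxc8 had the smallest p, with an interaction of 1.64 ± 0.49 on the log2 scale (SE, n = 3 per group; adjusted p = 0.405 by edgeR). At 12 weeks its level was 1.48, 2.51 and 1.01 CPM per kb in controls and 2.51, 3.38 and 2.32 in DMM, so the limbs overlapped, where they had been apart at 4 weeks. Hoxc4 and Hoxc11 followed, with interactions of 1.84 ± 0.66 and 2.79 ± 1.06 (both adjusted p = 0.405 by edgeR). They were 1.17 for Hoxc4 without control replicate 1 of 4 weeks and 4.22 for Hoxc11 without control replicate 3 of 12 weeks. Hoxc4 had 1.02, 0.404 and 0.307 in the 4-week controls and 0.449, 0.292 and 0.217 in 4-week DMM, against 0.188, 0.297 and 0.299 and then 0.550, 0.599 and 0.419 at 12 weeks. Hoxc11 had at most 16 counts in a library.

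Within the control limbs, 12 weeks were compared with 4 weeks after surgery of the other knee. The week goes with the age of the mice, and these cannot be told apart. The sources used here do not say whether the RNA libraries of both times were made together, so library making cannot be told apart from the week either. This holds for every comparison between weeks. Here 1 of 28 Hox genes was called by edgeR, where 5.69% of transcripts were called, and 6 had an unadjusted p under 0.05, where 25.4% of transcripts did. The 1229 transcripts called became 37 without control replicate 1 of 12 weeks, 4685 without control replicate 3 of 4 weeks and 24 with the muscle score. DESeq2 called 1 of 28, where it called 13.9% of transcripts. Hoxd8, a trunk gene, fell by 1.95 ± 0.48 on the log2 scale (adjusted p = 0.0378 by edgeR). Its level was 7.73, 4.48 and 1.63 CPM per kb at 4 weeks and 1.03, 1.64 and 0.789 at 12 weeks. Control replicate 3 of 4 weeks lay at the level of the highest 12-week library. The call held without control replicate 3 of 4 weeks (adjusted p = 0.00165), DMM replicate 1 of 4 weeks (0.0449) or DMM replicate 3 of 12 weeks (0.0442) in edgeR, and was lost without any 1 of the other 9 libraries (0.0504 to 0.154) and with the muscle score as a covariate (0.226).

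Hoxc8 and Hoxc4 had the next smallest p, with log2 differences of -0.84 ± 0.35 and -1.09 ± 0.47 (adjusted p = 0.159 and 0.170 by edgeR). For Hoxc4 the difference was -0.43 without control replicate 1 of 4 weeks and -0.54 with the muscle score, and for Hoxc8 it was -1.27 without control replicate 2 of 12 weeks. The weeks did not overlap for 3 of the 28 genes, where 27.1% of transcripts did not overlap: Hoxb4 was higher at 12 weeks, and Hoxa6 and Hoxc4 were lower. The median log2 difference of the 28 genes was -0.49 (4 higher, 24 lower). It was -0.23 without control replicate 1 of 4 weeks (11 higher, 19 lower) and -0.76 without control replicate 2 of 12 weeks. In the same comparison all 8 neutrophil markers had higher fitted levels at 12 weeks (1 called, median log2 difference 1.04). Lower were 13 of 16 chondrocyte markers (1 called, median -0.65), 7 of 8 fibroblast and synovium markers (1 called lower and 1 higher, median -0.94), all 12 muscle markers (0 called, 2 at an unadjusted p under 0.05 in edgeR, median -1.28) and all 5 adipocyte markers (0 called, 2 at an unadjusted p under 0.05 in edgeR, median -0.98). With the muscle score as a covariate the median log2 difference of the Hox genes was -0.41 (5 higher, 23 lower). The part of the other markers in the Hox differences in control limbs was not tested. Without control replicate 3 of 4 weeks, which had the lowest Hox sum of its group, 7 of 30 Hox genes tested were called, Hoxa9, Hoxa10, Hoxa11, Hoxc4, Hoxc8, Hoxc10 and Hoxd8, where 21.4% of transcripts were called in the same fit.

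In the DMM limbs, 2 of 28 Hox genes were called between 4 and 12 weeks, where 23.6% of transcripts were called, and 7 had an unadjusted p under 0.05, where 37.4% of transcripts did. The 5109 transcripts called became 1682 without DMM replicate 3 of 4 weeks, 2202 without DMM replicate 2 of 4 weeks and 2160 to 3108 without any 1 of the DMM libraries of 12 weeks. DESeq2 called 2 of 32, where it called 29.1% of transcripts. These libraries are also those of the DMM to control comparisons, so the values are not independent of them. As in controls, the week goes with the age of the mice, and here also with the time since DMM of the same knee. Hoxb7, a gene of trunk and kidney, fell by 1.49 ± 0.44 on the log2 scale (adjusted p = 0.0312 by edgeR), from 0.771, 0.657 and 1.72 CPM per kb at 4 weeks to 0.281, 0.439 and 0.372 at 12 weeks. Replicate 3 of 4 weeks stood apart, and without it the log2 difference was -0.97 (adjusted p = 0.146 by edgeR). Leaving out DMM replicate 1, 2 or 3 of 12 weeks also ended the call (adjusted p = 0.104, 0.0520 and 0.0853 by edgeR).

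Hoxa3 rose by 1.37 ± 0.41 on the log2 scale (adjusted p = 0.0319 by edgeR), from 0.455, 0.264 and 0.193 CPM per kb to 0.602, 0.978 and 0.707, with no overlap of the weeks. The call was lost without DMM replicate 2 or 3 of 4 weeks (adjusted p = 0.112 and 0.139) and without DMM replicate 2 or 3 of 12 weeks (0.105 and 0.0695) in edgeR. Hoxd4 had a log2 difference of 1.17 ± 0.45 (adjusted p = 0.0781 by edgeR), with 0.232, 0.172 and 0.144 at 4 weeks and the 12-week values given above. The weeks did not overlap for 8 genes, where 42.8% of transcripts did not: Hoxa3, Hoxa5, Hoxc5, Hoxc8 and Hoxc11 were higher at 12 weeks, and Hoxb7, Hoxd8 and Hoxd10 were lower. For Hoxd8 the levels were 5.25, 3.23 and 3.95 at 4 weeks and 1.98, 2.83 and 1.58 at 12 weeks. The median log2 difference was 0.33 (22 higher, 6 lower), and it was 0.66 without DMM replicate 1 of 4 weeks, 0.58 without DMM replicate 1 of 12 weeks and 0.50 without DMM replicate 3 of 12 weeks. Between the same libraries 4 of the 8 fibroblast and synovium markers were called lower at 12 weeks and 1 higher (median log2 difference -1.12), and 4 of the 16 chondrocyte markers were called higher (median 0.52). All 8 neutrophil markers (1 called, median 0.59) and all 12 muscle markers (0 called and 0 at an unadjusted p under 0.05 in edgeR, median 0.98) had higher fitted levels, and all 5 adipocyte markers (2 called, median -1.14) and 4 of 6 endothelial markers (2 called, median -0.68) had lower ones. With the muscle score as a covariate the median log2 difference of the Hox genes was 0.34 (22 higher, 6 lower). The part of the other markers in the Hox differences between weeks was not tested.

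**Figure D4:**
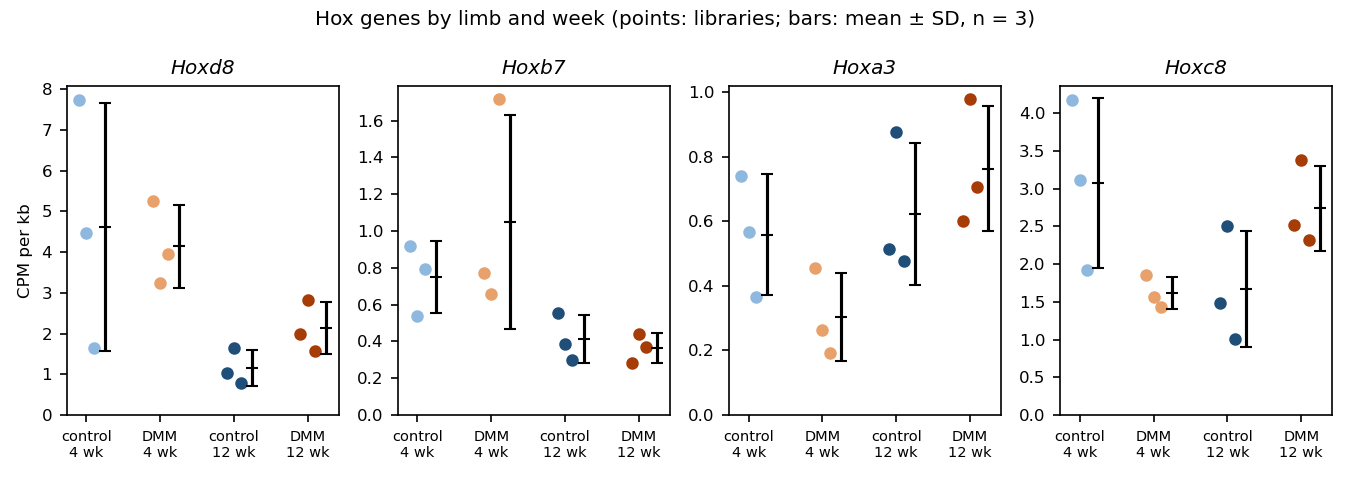
Level in CPM per kb (y axis, from 0) of Hoxd8, Hoxb7, Hoxa3 and Hoxc8 by limb and week, with 1 point per library and the mean ± SD of 3 libraries. Hoxd8 is below 3 in all 12-week libraries, and the single DMM library of 4 weeks at 1.72 raises the Hoxb7 mean.

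5mC was read within 500 bp on each side of the RefSeq start for 31 Hox genes at each time, at 5 to 126 cytosines that each library of that week covered 10 times or more. The reads of a gene in a library numbered 130 to 15088 at 4 weeks and 133 to 8038 at 12 weeks. In the controls 22 of 31 Hox starts were below 5% 5mC at each time. The share of all genes below 5% is not given here. The median of the Hox starts was 2.17% at 4 weeks and 2.23% at 12 weeks. Over all genes the median was lower, at 0.761% (13253 genes) and 0.417% (13087 genes). Hoxa10, at 0.626, 0.772 and 0.806% in the 4-week controls, and Hoxd9, at 1.55, 1.13 and 1.28%, were among the Hox starts below 5%. So were genes with almost no reads, such as Hoxd1, at 3.47, 1.71 and 2.03%, and Hoxb13, at 0.719, 1.16 and 1.11%. Over the 31 genes Spearman's rho between RNA level and 5mC in the controls was -0.08 at 4 weeks and -0.05 at 12 weeks, as a description over genes that share clusters and libraries.

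At 10% or more in the controls there were 7 genes at each time, where 6.84% and 6.85% of all genes were: Hoxa2, Hoxa5, Hoxa6, Hoxc4, Hoxc6, Hoxd4 and Hoxd12. Hoxa5, which patterns lung and the neck skeleton, had the highest 5mC. It was 72.9, 64.7 and 69.6% in the 4-week controls and 66.8, 65.7 and 69.4% in 4-week DMM, over 55 cytosines. Its RNA was still counted in every library, at 0.388 to 1.36 CPM per kb. In the Hoxa5 promoter printed above, 8 of 29 CpGs were read in every 4-week library, with a control median of 80.3% (44.3 to 85.2%). In that of Hoxd1, with the same number of CpGs, 26 were read, with a median of 1.68% (0 to 4.89%). In that of Hoxd9, 11 of 20 were read, with a median of 1.57%, and in that of Hoxd4 all 4, with a median of 26.7% (3.601 to 38.7%). None of the 21 CpGs of the Hoxa10 promoter was read in every library, and the 13 cytosines read for Hoxa10 lay downstream of the start. In Hoxd12, which had no RNA counts, 5mC was 13.1, 11.9 and 11.9% in the 4-week controls.

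**Figure D5:**
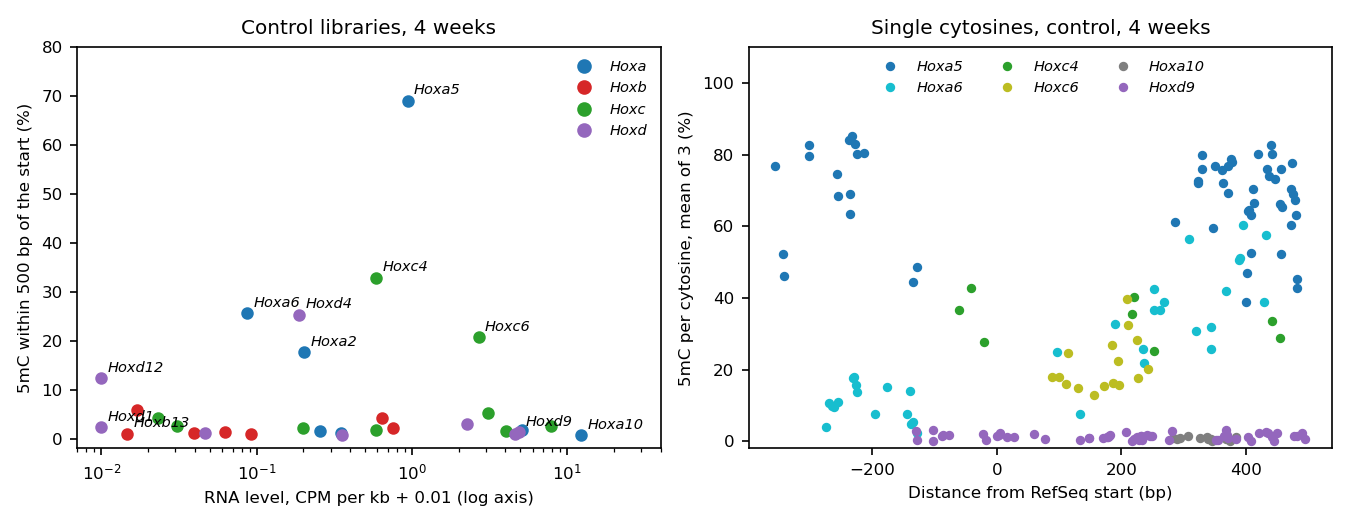
Left, 5mC within 500 bp of the start (y axis, %) against RNA level (x axis, CPM per kb + 0.01, log axis) for 31 Hox genes in the 4-week controls (means of 3 libraries). Right, 5mC of single cytosines (means of 3 control libraries) by distance from the start for 6 genes. Hoxa5 stands at 69.1%, while the highest single cytosine is at 1.58% in Hoxa10 and at 3.14% in Hoxd9.

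DMM and control limbs differed little at most Hox starts. The median difference was -0.09 percentage points at 4 weeks and 0.02 at 12 weeks, beside -0.05 and -0.03 over all genes. The limbs did not overlap for 6 of 31 genes at 4 weeks, 3 higher and 3 lower, where 9.58% of all genes did not overlap, and for 9 at 12 weeks, 2 higher and 7 lower, where 14.4% did not. With 3 libraries against 3, a two-sided exact permutation test cannot go below p = 0.1, which each of these genes reached, so none can pass 0.05. Hoxc6 was at 16.6, 22.4 and 23.1% in the 4-week controls and 25.3, 28.8 and 29.2% in DMM, a difference of 7.06 points. At 12 weeks the limbs overlapped, at 20.4, 22.7 and 14.3% against 28.0, 22.9 and 22.6%. Hoxa6 was at 26.0, 27.6 and 23.2% in the 4-week controls and 30.3, 28.0 and 31.3% in DMM, and at 12 weeks the limbs overlapped.

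At 12 weeks, Hoxa5 was at 71.7, 69.4 and 76.5% in controls and 58.7, 67.5 and 65.6% in DMM, a difference of -8.57 points with no overlap. Hoxc4, a gene of the neck, was at 26.6, 25 and 28.9% in controls and 32.6, 44.9 and 33.1% in DMM, a difference of 10.03 points over 8 cytosines. At 4 weeks Hoxc4 had 25.5, 44.6 and 28.6% in controls and 38.5, 50.7 and 47.4% in DMM, and the limbs overlapped. Hoxd10 was at 5.22, 6.32 and 5.50% in 12-week controls and 3.46, 2.91 and 2.94% in DMM. The other genes without overlap differed by at most 2.30 points: Hoxc8 was higher and Hoxa11, Hoxc10 and Hoxc11 were lower at 4 weeks, and Hoxc9 was higher and Hoxa4, Hoxc5, Hoxc11, Hoxd1 and Hoxd9 were lower at 12 weeks. These lower genes of 12 weeks differed by -0.54 to -0.99 points, at control means of only 1.53 to 2.79%. Only Hoxc11 was without overlap at both times, lower in each, with 34 cytosines read at each time. Cytosines were chosen within each week, so the sites read for a gene can differ between weeks. For Hoxc9 they numbered 26 at 4 weeks and 12 at 12 weeks.

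Genes that work with Hox genes were read from lists. Of 9 TALE homeobox genes, whose proteins bind DNA together with Hox proteins, 9 were tested and none was called between limbs at either week, with 1 higher and 1 lower at an unadjusted p under 0.05 at each time, where 13.7% of transcripts passed at 4 weeks and 16.3% at 12 weeks. Their highest levels were those of Pknox1 and Meis3, both 6.56 CPM per kb. Between weeks 1 of the 9 was called in controls, where 5.69% of transcripts were, and 2 in DMM limbs, where 23.6% were: Pbx3 fell in controls, by 1.06 ± 0.21, and in DMM limbs, by 0.88 ± 0.21 on the log2 scale (adjusted p = 0.0181 and 0.0132 by edgeR), and Pbx2 rose in DMM limbs by 0.83 ± 0.20 (adjusted p = 0.0159 by edgeR).

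Of 17 limb patterning genes, 15 were tested and none was called between limbs. At 12 weeks 14 of the 15 had higher fitted levels with DMM, 7 of them at an unadjusted p under 0.05, where 16.3% of transcripts passed, with a median log2 fold change of 0.76. The highest levels were those of Barx1 and Osr2, joint patterning genes, at 13.6 and 12.0 CPM per kb. Between weeks 3 of the 15 were called in controls, where 5.69% of transcripts were, and 1 in DMM limbs, where 23.6% were. In controls Barx1 fell by 2.74 ± 0.61, Twist1 by 2.27 ± 0.47 and Tbx2 by 1.31 ± 0.32 from 4 to 12 weeks (adjusted p = 0.0269, 0.0202 and 0.0365 by edgeR). In DMM limbs Prrx1, a gene of limb mesenchyme, fell by 1.03 ± 0.30 (adjusted p = 0.0295 by edgeR).

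Of 20 genes for chromatin regulators of Hox clusters, 19 were tested and none was called between limbs, with 4 lower at 4 weeks and 3 higher at 12 weeks at an unadjusted p under 0.05, beside the same shares of transcripts. The Polycomb genes Eed and Rnf2 had the highest levels, 21.8 and 21.5 CPM per kb. From 4 to 12 weeks, Kdm6b, a demethylase of the Polycomb mark, rose in controls by 0.95 ± 0.21 and in DMM limbs by 1.55 ± 0.22 (adjusted p = 0.0272 and 0.00315 by edgeR), and Bmi1 fell by 0.92 ± 0.22 and 0.77 ± 0.22 (0.0347 and 0.0270). Phc2 fell in controls. In DMM limbs, where 23.6% of all transcripts were called, Kmt2b, Men1 and Wdr5 of the activating complexes and Cbx2, Cbx7 and Ring1 of Polycomb were also among the genes that rose. Of 10 non-coding genes of the clusters with a row, 4 were tested within weeks and 5 across weeks, and none was called. Hoxa11os had 2.75 and Mir196b 2.73 CPM per kb, the latter from 2 to 21 counts in a transcript of 85 bases. Hotair had 0 to 17 counts. Of 15 genes next to the clusters with a row, 11 were tested; Skap2 and Hibadh had the highest levels, 58.3 and 41.5 CPM per kb, and only Mtx2, which fell by 0.60 ± 0.17, and Snx11, which rose by 0.97 ± 0.20, were called, both between weeks in DMM limbs, where 23.6% of transcripts were called (adjusted p = 0.0247 and 0.00762 by edgeR).

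Most of these calls between weeks were lost in 1 or more fits without a single library. Those fits also called fewer transcripts in all. Without the control libraries named next, 37 to 265 were called in controls instead of 1229. Without the DMM libraries named below, 1682 to 3108 were called in DMM limbs instead of 5109. A lost call therefore does not show that it rested on the library left out. In controls, those of Pbx3, Barx1, Twist1, Tbx2, Kdm6b, Bmi1 and Phc2 were each lost without control replicate 1 or 3 of 12 weeks, without control replicate 1 or 2 of 4 weeks and with the muscle score. In DMM limbs, those of Kdm6b, Kmt2b, Men1, Wdr5 and Snx11 held without any 1 library. The calls of Pbx2, Cbx7, Ring1 and Bmi1 were lost without DMM replicate 2 or 3 of 4 weeks, those of Pbx2 and Bmi1 also without DMM replicate 3 of 12 weeks and that of Ring1 without DMM replicate 2 of 12 weeks. The call of Pbx3 was lost without DMM replicate 3 of 12 weeks. Those of Mtx2, Prrx1 and Cbx2 were lost without DMM replicate 1 of 12 weeks or replicate 3 of 4 weeks, that of Prrx1 also without replicate 3 of 12 weeks and that of Mtx2 also without replicate 2 of 4 or of 12 weeks, and that of Cbx2 was lost without 9 of the 12 libraries.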

How the data were processed

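Per the paper's methods the authors used FLEXBAR for trimming, STAR for alignment to mm10 and featureCounts for counting, and deposited raw counts per RefSeq transcript. The authors deposited, for each CpG cytosine of the oxBS libraries, read counts as coverage and the percent of C and T, with at least 10 reads. The non-oxidised libraries were not used here. The members and gene lists were chosen with earlier results of these data known.

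Of 30048 transcripts, 29447 took a symbol from the GRCm38.p6 annotation, 29 from the RefSeq gene table and 572 had none. All transcripts were fitted with edgeR 4.0.16 in R 4.3.3 (robust quasi-likelihood test, TMM, default filter on low counts, Benjamini-Hochberg adjustment over all transcripts tested), within a week for limbs and over 12 libraries for the interaction and the weeks. SE is the absolute log2 fold change over the square root of F. Levels are TMM CPM per kb. Methylated reads were coverage times the percent of C, pooled within 500 bp of the start at cytosines with at least 10 reads in all 6 libraries of a week, for genes with at least 5. Control and DMM limbs came from the same mice, but which control pool shares mice with which DMM pool is not given in the sources used here, so pools were fitted as independent and p-values measure the spread between pools. Values are given per library or by range for the 10 highest genes and, in each comparison, for those past the threshold and the 3 with the smallest p. Hoxc11 is given only by its highest count. The test was tested on simulated data. Alternatives were DESeq2 1.42.0, other scaling and filters, 1 transcript per gene, a muscle score, a replicate block and left-out libraries, and for 5mC other minimums, windows and weights.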

Additional observations from a re-analysis of the deposited data

How the results depend on the processing

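The counts of Hox genes called between limbs were 0 under each alternative at 4 weeks and for the interaction. Deviations of same-numbered libraries from their group means correlated at 0.37, -0.36 and 0.08 at 4 weeks and -0.58, 0.29 and -0.27 at 12 weeks. These values cannot show whether same-numbered pools share mice, since muscle and marrow markers also varied widely between pools. With the replicate number as a block 1 of 26 genes, Hoxa10, was called at 12 weeks, where 3.49% of transcripts were. The block left the other counts of Hox genes called within 1.5 times, while over all transcripts it raised the calls between limbs from 16 to 354 at 4 weeks and from 1 to 734 at 12 weeks. Between weeks in controls the count was 0 with the muscle score as a covariate and 0 to 7 with a library left out, and in DMM limbs it was 0 to 3 with a library left out. Hoxa3 at 4 weeks reversed to a log2 fold change of 0.35 with the muscle score, which largely went with limb at that time. The median 5mC differences moved by less than the spread between replicates, as did the membership of the 10 highest genes, which stayed 10 of 10. Of the counts and medians under the alternatives, 104 were unchanged within 1.5 times or the spread between replicates and 17 moved. Of the single-gene differences under the alternatives, 230 kept their direction and side of the threshold, 18 lost the call, 3 gained it and 1 reversed. Most of the 230 belong to differences that were not called in the main fit. Among those called, Hoxd8 between weeks in controls kept the call in 9 alternatives and lost it in 10. Hoxb7 and Hoxa3 between weeks in DMM limbs each kept it in 15 and lost it in 4. Depth limits the low genes: 10 to 13 Hox genes per comparison were below the filter.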
